A study of Mus musculus with 22 samples.

Results

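The comparison described here set 3 libraries of mouse duodenal organoids against 4 untreated libraries, 7 of the 22 libraries of the series. The 3 libraries were treated directly with cold atmospheric plasma (CAP) and are labelled 30 min. The members were taken by their column names and labels, with no use of measured values. Organoids are cultures in which intestinal stem cells grow in a gel matrix into a budding epithelium that also holds their differentiated descendants. All lines came from wild type adult CD1 mice, 1 line per mouse, so each library stands for 1 line and pooled epithelial cell types. The lines are numbered 1 to 4 here, for those labelled CD1, WT2, 1 and 2 in that order. Lines 1, 2 and 4 were found in both groups, at passages 12, 14 and 4 by the labels, and line 3, at passage 4, was found only among the untreated libraries. The methods of the study give an earlier passage for lines 3 and 4. CAP is an ionised helium gas that delivers reactive oxygen and nitrogen species to the culture. It was applied to the organoids 1 day after seeding, and in this group the treated medium was replaced 30 min later. The plasma itself was applied for a much shorter time, so direct CAP for 30 min here means 30 min in the treated medium. The study's design keeps cultures until day 3 while its text speaks of an early response, so the time between exposure and collection of these libraries is not certain. A free-text label calls both the 30 min and the 24 h libraries controls of the direct treatment, whereas the treatment label gives CAP for 30 min, which is used here. No group exposed to the carrier gas alone was analysed here, so plasma, gas flow and the change of medium cannot be told apart.

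Immediate early genes are transcribed within minutes of a stimulus without the need for newly made protein, and many encode transcription factors. Fos and Jun family proteins pair to form the AP-1 factor, and Egr1 is a zinc finger factor induced by growth factor, stress and oxidant signals through MAP kinases. In the intestine, injured epithelium passes through a regenerative phase with YAP activity, fetal-like genes and EGF family ligands, and reactive oxygen species engage the NRF2, p53 and ATF4 programmes. The comparison asks which of these genes differed in organoids that met the plasma-treated medium only briefly.

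The deposited values are reads scaled by the authors to about 20 M per library and are not divided by gene length, so they are compared here between libraries and not between genes. Estimated depths were 20.7 to 26 M reads in the untreated libraries and 21.1 to 28.7 M in the treated libraries, with line 4 the deepest. Epithelial identity genes had a summed value of 95072 to 105933 in the untreated libraries and 102298 to 117541 in the treated libraries, and fibroblast markers one of 34 to 87 over all 7. Of the markers of other tissues, 1 of 9 fibroblast (Lum), 2 of 7 endothelial (Cdh5 and Emcn), 0 of 11 immune and 1 of 8 enteric neuron and glia markers were at 0 in every library. The highest single value in these lists was 48 (Vim), 53 (Vwf), 1233 (Kit) and 250 (Ret) in that order. The last 2 lists thus owe their highest value to 1 gene each, and which cells expressed it was not tested. The labels call the cells stem cells, and the stem cell receptor gene Lgr5 was present at 747 to 2822, but the Paneth cell lysozyme gene Lyz1 (6734 to 20706) and the enterocyte sucrase gene Sis (27677 to 53252) were abundant too. The line labels of 2 untreated libraries are in doubt. For 16 genes that separated the treated libraries of lines 1 and 2, the untreated library labelled line 1 was nearer to line 2 at 13, and that labelled line 2 was nearer to line 1 at all 16. The tests were run without the line unless a block is named and do not depend on these labels. Values given for untreated line 1 or 2 are those of the library so labelled.

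Egr1 was the only gene past the threshold of the study, which asks for an adjusted p (Benjamini-Hochberg) below 0.01 with at least 1 unit of log2 fold change, among 17731 genes tested with limma's trended moderated test. This is 0.00564% of the genes tested for a rise, and 0% were past it for a fall. Before adjustment, 2459 genes were higher with p under 0.05 (13.9%) and 1956 were lower (11%). Egr1 (ENSMUSG00000038418) had values of 275, 389, 346 and 314 in the untreated libraries of lines 1 to 4 and 1246, 1102 and 1070 in the treated libraries of lines 1, 2 and 4. The groups did not overlap, and the lowest treated library stood well above the highest untreated library. The log2 fold change was 1.79 (SE 0.13, adjusted p = 0.00696), from a mean of 331 ± 48.4 (SD, n = 4) to 1139 ± 93.8 (SD, n = 3). With the line as a block no gene was past the threshold, and Egr1 had an adjusted p of 0.0326 by limma in that fit. With the labels of the doubtful pair exchanged, which was tried after the data were seen, the block gave 497 genes past the threshold and Egr1 an adjusted p of 2.77e-05. With all 7 groups and the block it was 0.00077. Egr1 also missed the threshold without any single one of the 7 libraries, with an adjusted p by limma of 0.0127 to 0.0875, and with all 7 groups in one fit without the block (0.0155), where Fos alone was past it (9.59e-05).

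At an adjusted p under 0.10, 4 genes rose (0.0226% of the genes tested) and 1 fell (0.00564%). The risers beside Egr1 were Fos, Zfp36 and Cyr61, each with an adjusted p of 0.0534 by limma, and Fgfbp1, with the same adjusted p, was the gene that fell. Fos, the founding member of the AP-1 family, showed values of 157, 327, 291 and 218 in the untreated libraries and 1786, 1077 and 1515 in treated lines 1, 2 and 4. Every treated library was thus above every untreated library, with line 1 the highest, and the log2 fold change was 2.57 (SE 0.27). Zfp36 encodes tristetraprolin, which speeds the decay of mRNAs with AU-rich elements. Its values lay at 602, 778, 659 and 637 without treatment and at 1285, 1194 and 1270 with it, a log2 fold change of 0.91 (SE 0.10). Cyr61 encodes a secreted matrix protein and is a common readout of YAP and SRF activity. It was found at 138, 121, 148 and 135 in untreated organoids and at 314, 270 and 300 after CAP, a log2 fold change of 1.12 (SE 0.12). Fgfbp1, which encodes a carrier that releases fibroblast growth factors from the matrix, was found at 3314, 3549, 3223 and 3680 in untreated organoids and at 2201, 2144 and 1912 after CAP. Its log2 fold change was -0.72 (SE 0.08). The treated libraries lay close together for Zfp36, Cyr61 and Fgfbp1 and further apart for Fos. On GRCm38, Fos lies at chr12:85473890-85477273, Zfp36 at chr7:28376784-28380253, Cyr61 at chr3:145646976-145649981 and Fgfbp1 at chr5:43978858-43981779, and the values count reads over the exons of each gene.

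Below that limit the adjusted p values climb in steps. The number of genes was 5 at an adjusted p under 0.10, 206 under 0.101 and 560 under 0.11, so many genes named below carry an adjusted p of 0.1005 and are given as values, not as calls. Where a pair of ranges is given for a gene, the first is that of the 4 untreated libraries and the second that of the 3 treated libraries, and values listed singly follow the order of the lines. With the line as a block, 1232 genes had an adjusted p under 0.10, 1089 higher (6.14%) and 143 lower (0.806%), which rests on the line labels. Line 3 has no treated library, so every fit with this block gives untreated line 3 no weight in the comparison. Differences between blocked and unblocked results therefore mix the pairing of lines with the loss of that library. All 3 treated libraries lay above all 4 untreated libraries for 2203 genes (12.4%) and below them for 1988 (11.2%). Of the 17731 genes tested, 9284 had a log2 fold change above 0 and 8446 one below it. Counts of list members that were higher or lower are to be read beside these, and several are near that split. Counts of list members in the fit with the block are given for some lists only.

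**Figure D1:**
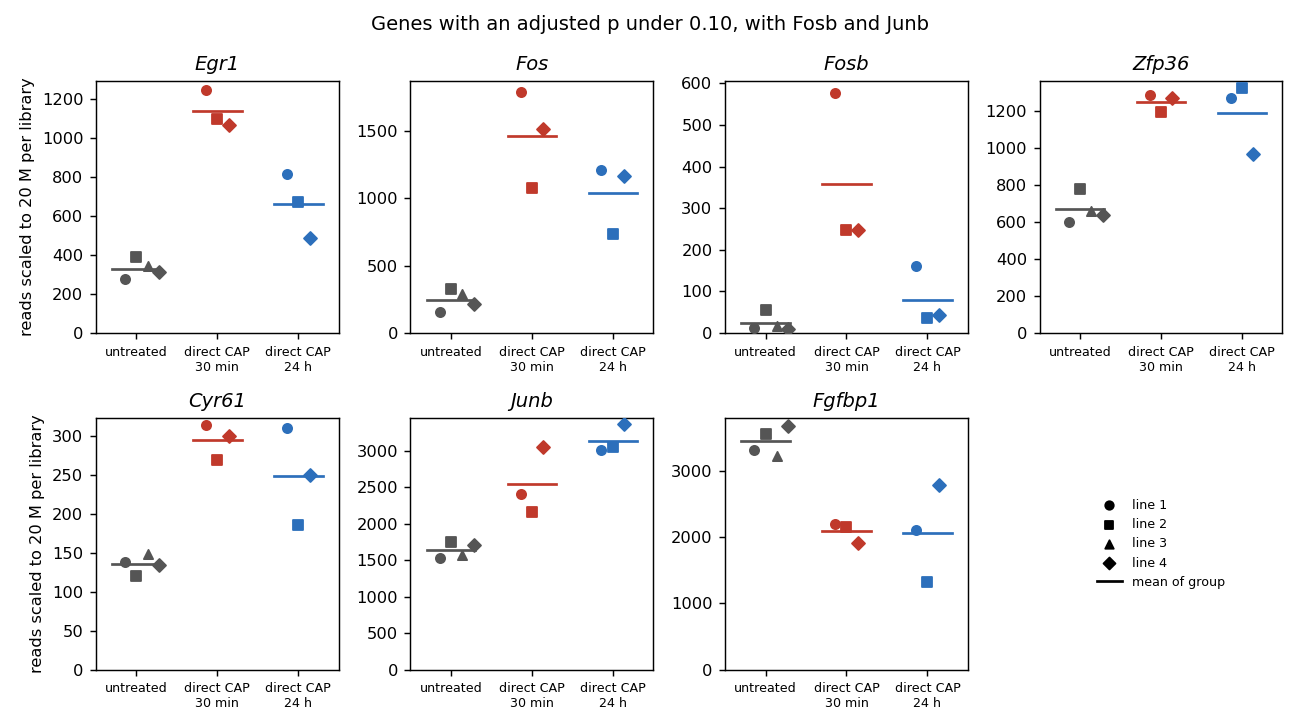
Values per library (reads scaled to 20 M, axis from 0) of the 5 genes with an adjusted p under 0.10 and of Fosb and Junb, in 4 untreated libraries, 3 after direct CAP for 30 min and 3 after direct CAP for 24 h. Symbols mark organoid lines and bars the group means; for Egr1 the treated libraries at 30 min lie between 1070 and 1246, above the 24 h libraries (490 to 817) and the untreated libraries (275 to 389).

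The genome sequence just before the start of Fos, Zfp36, Cyr61, Fosb and Fgfbp1 is shown because these genes had the smallest adjusted p values after that of Egr1, whose window is not shown here, or, for Fosb, the largest change of the AP-1 genes. The sequences are from RefSeq on GRCm38.p6, 250 bases that end at the base before the start in RefSeq, written 5′ to 3′ along the gene (Cyr61 is listed there as Ccn1). Fos is at chr12:85473640-85473889 on the plus strand, and the others are on the minus strand, Zfp36 at chr7:28379229-28379478, Cyr61 at chr3:145649986-145650235, Fosb at chr7:19310046-19310295 and Fgfbp1 at chr5:43981800-43982049. The gene positions given above are from GENCODE, where a longer Zfp36 transcript starts further upstream, so that all 250 bases of the Zfp36 window lie inside that gene. For Fosb 6 bases of the window do. Capitals mark TGACGT, a part of the cyclic AMP response element, and GCGGGGGCG, an Egr site, on either strand.
Fos: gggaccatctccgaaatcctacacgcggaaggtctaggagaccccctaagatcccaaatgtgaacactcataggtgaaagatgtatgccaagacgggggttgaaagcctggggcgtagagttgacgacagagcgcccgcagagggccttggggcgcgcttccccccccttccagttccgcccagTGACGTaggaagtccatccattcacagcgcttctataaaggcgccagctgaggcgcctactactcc
Zfp36: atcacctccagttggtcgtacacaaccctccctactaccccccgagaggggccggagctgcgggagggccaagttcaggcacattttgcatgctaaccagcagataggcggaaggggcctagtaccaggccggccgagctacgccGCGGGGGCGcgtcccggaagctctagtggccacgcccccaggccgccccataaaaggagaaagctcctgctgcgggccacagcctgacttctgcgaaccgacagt
Cyr61: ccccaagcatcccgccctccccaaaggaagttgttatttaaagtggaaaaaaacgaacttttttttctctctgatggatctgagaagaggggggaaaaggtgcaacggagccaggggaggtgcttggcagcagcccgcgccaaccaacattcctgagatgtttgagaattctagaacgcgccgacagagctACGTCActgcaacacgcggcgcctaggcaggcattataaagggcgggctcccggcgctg
Fosb: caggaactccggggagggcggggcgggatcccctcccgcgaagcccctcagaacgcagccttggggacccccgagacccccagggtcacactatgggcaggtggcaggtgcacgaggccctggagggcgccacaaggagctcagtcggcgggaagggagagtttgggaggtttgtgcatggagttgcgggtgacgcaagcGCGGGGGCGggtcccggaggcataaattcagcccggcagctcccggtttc
Fgfbp1: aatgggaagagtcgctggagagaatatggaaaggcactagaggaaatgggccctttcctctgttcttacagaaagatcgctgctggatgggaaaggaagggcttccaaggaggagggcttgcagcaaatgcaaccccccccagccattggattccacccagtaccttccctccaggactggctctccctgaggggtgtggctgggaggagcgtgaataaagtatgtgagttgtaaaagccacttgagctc
TGACGT was found once in Fos, 66 bases before the RefSeq start, and once in Cyr61, 59 bases before it, and is held by 6.47% of the 32851 windows of this length. GCGGGGGCG was found once in Zfp36, 105 bases before that start, and once in Fosb, 50 bases before it, and is held by 2.57% of windows. The AP-1 site TGANTCA was found in none of the 5 windows (6.75% of all windows hold it), and the CArG box, the site of SRF, was found in Zfp36 only (1.47% of all windows). The window of Fgfbp1 held none of these letters. The CArG box is not marked in capitals. Bases outside these windows were not searched, so a site absent from a window may lie further upstream. These matches describe the sequence and were not tested for binding.

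The AP-1 genes were higher together. Of 15 listed, 13 passed the filter on low values, and 13 of these were higher after treatment, 8 of them with an unadjusted p under 0.05 and 8 with no overlap between groups, at a median log2 fold change of 0.40 against 0.02 over all genes tested. Of these, 6 had an adjusted p under 0.10 with the line as a block. This median ranged from 0.35 to 0.56 with 1 library left out, but of the 34 lists 28 had a median that moved by over 1.5 times or turned sign in this way, and the outer values are given below for the lists described at length. Fosb had the largest difference on the log2 scale, 4.12 (SE 0.58, adjusted p = 0.1005 by limma), from 11, 56, 16 and 10 to 577, 248 and 247. The untreated library of line 2 was highest in its group and still below each treated library. Junb was at 1534 to 1753 in untreated organoids and at 2411, 2166 and 3056 after CAP. Atf3, a stress-induced partner of the Jun proteins, stood at 83 to 106 without treatment and at 139, 196 and 191 with it. Jun itself, added after its values were seen, ranged from 999 to 1305 and from 1339 to 1694. Jdp2, a repressor of AP-1, had 6, 16, 17 and 25 against 20, 34 and 34, so that its groups overlapped. Its adjusted p was 0.231 by limma.

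Among the other immediate early genes, 28 of 30 passed the filter and 23 were higher, 11 with an unadjusted p under 0.05 and none lower with one, at a median log2 fold change of 0.38. With the line as a block 6 were higher and 0 lower at an adjusted p under 0.10, against 2 higher without it. Nr4a1, an orphan nuclear receptor, was at 111, 76, 93 and 113 without CAP and 180, 282 and 204 with it (log2 fold change 1.16, SE 0.21). Plk3, a stress-responsive kinase, was at 207 to 272 and then at 409, 433 and 777, with line 4 the highest. MAP kinase phosphatases and Sprouty family genes, which shut off the pathway that feeds these genes, were higher in 13 of 17 members tested, at a median of 0.23 (0.10 without treated line 4). Dusp4 was at 557 to 807 in untreated and 839 to 990 in treated libraries, Errfi1, an inhibitor of the EGF receptor, at 1018 to 1242 and 1360 to 1850, and Spred3 at 16 to 20 and 24 to 38. Spred1 was lower, at 1309 to 1529 and 1130 to 1218.

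Among EGF family ligands and receptors, 9 of 10 tested were higher (median log2 fold change 0.26, and 0.14 without treated line 4), but only 2 reached an unadjusted p under 0.05. Hbegf, the heparin-binding ligand, was found at 141, 194, 253 and 195 and after CAP at 355, 308 and 404, with no overlap. Areg, the amphiregulin gene, was at 198, 328, 882 and 628 and after CAP at 617, 1067 and 2586. Its untreated libraries spanned more than the gap between the groups, and the adjusted p was 0.176 by limma (0.0148 with the line as a block). YAP, SRF and actin cytoskeleton genes were higher in 21 of 24 tested (median 0.33, and 0.22 without treated line 4). Beside Cyr61 they include Zyx (1711 to 1976 and 2163 to 2564), Vcl (2307 to 2740 and 3031 to 3292) and Pdlim7 (154 to 269 and 270 to 579), all of which encode adhesion or actin-linked proteins. Laminins, integrins and hemidesmosome genes were higher in 16 of 18 (median 0.47), 6 of them with an unadjusted p under 0.05. With the line as a block 5 were higher and 0 lower at an adjusted p under 0.10, against 0 higher without it. Lama5, a basement membrane laminin chain of the gut epithelium, was at 1469, 1522, 1950 and 1315 and after CAP at 3067, 2825 and 3789, a log2 fold change of 1.05 (SE 0.15, adjusted p = 0.1005 by limma). Lamc1 was at 1858 to 2196 and 2242 to 2858, and the hemidesmosome integrin gene Itgb4 at 4900 to 5518 and 6264 to 11525. Plec, which links the hemidesmosome to keratin, ranged from 14770 to 21568 in untreated and from 20795 to 27332 in treated libraries, an overlap.

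Fetal-like regeneration markers were higher in 24 of 25 tested, at a median log2 fold change of 0.72, but 5 of these reached an unadjusted p under 0.05. Of all genes tested, 13.9% were higher at that limit. Groups did not overlap for 3 members (Cyr61, Epn3 and Phlda3), a share near the 12.4% of all genes tested. Cyr61, which is also on the YAP list, was the 1 member at an adjusted p under 0.10 without the block. The median was 0.33 without treated line 4, 0.44 without untreated line 1 and 1.08 without treated line 2, and by library, as a difference from the untreated mean, it was 0.51, 0.20 and 1.55 in treated lines 1, 2 and 4 and -0.93 to 0.76 in the untreated libraries. In the fit blocked by line, 14 of the 25 were higher at an adjusted p under 0.10, against 1 without it, and the blocked adjusted p by limma was 0.0633 for Ly6a, 0.0773 for Clu and 0.0579 for Dsg3. That fit gives no weight to untreated line 3, which had the highest median of this list among the untreated libraries (0.76). Several of these genes are ones the study chose for this response, so their direction here is not independent evidence. Ly6a, which encodes the surface antigen Sca1, was at 79, 154, 788 and 241 without treatment and 352, 318 and 420 with it, and its highest value was that of untreated line 3. Clu was at 998, 2865, 4602 and 5506 and after CAP at 4710, 4340 and 10178 (adjusted p = 0.293 by limma). Ptgs2, encoding cyclooxygenase 2, was at 10, 13, 70 and 49 and then 38, 19 and 114. For these 3 genes the groups overlapped. Epn3, an endocytic adaptor gene, was at 626 to 858 and then 1019, 879 and 1941, and Phlda3, a p53 target that inhibits Akt, at 203 to 465 and then 473, 555 and 657, both without overlap. Dsg3, a desmosomal cadherin gene, had values from 2 to 20 in untreated and from 12 to 80 in treated libraries. Spp1, the osteopontin gene, was the member that was lower, at 11 to 54 and 3 to 15. Nupr1, a stress-induced chromatin protein gene that is not on the list, was at 194 to 539 and 218 to 650.

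Target genes of p53 were higher in 19 of 21 tested, 10 with an unadjusted p under 0.05 and 9 with no overlap between groups, at a median log2 fold change of 0.31 (0.15 without untreated line 1). Blocking by line gave 10 that were higher at an adjusted p under 0.10, against 0 without the block. Zmat3, an RNA-binding regulator of splicing, was at 1552, 1850, 2016 and 1676 and after CAP at 2862, 2929 and 3022, a log2 fold change of 0.73 (SE 0.10, adjusted p = 0.1005 by limma). Its treated libraries lay within a narrow band. Eda2r, a receptor of the tumour necrosis factor family, was at 301 to 380 and then 483, 703 and 664. Sesn2, which restrains mTORC1 and is shared with the ATF4 list, was at 692 to 778 and then 1071, 1243 and 1035. The cell cycle inhibitor gene Cdkn1a, named after its values were seen, was at 1744 to 2142 and then 2438, 3243 and 3049, while Mdm2, the ubiquitin ligase gene of the p53 feedback loop named likewise, was at 913 to 1548 and 1390 to 1677, an overlap. Of the BCL2 family and apoptosis effectors, 16 of 27 were higher and 11 lower. Unc5b, a dependence receptor gene, was at 394 to 543 and then 636, 833 and 1712, Cidec at 92 to 136 and 135 to 310, and Capn5 at 1147 to 1354 and 1501 to 2572. Pycard, which encodes the inflammasome adaptor ASC, was lower at 3188 to 3652 and then 2239, 2410 and 1485.

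NRF2 targets, glutathione and thioredoxin genes were higher in 25 of 30 tested, with a small median log2 fold change of 0.20 (0.13 without untreated line 1), and 8 of them had an unadjusted p under 0.05. Slc7a11, the cystine transporter gene, was at 779, 784, 1206 and 895 and after CAP at 1414, 1762 and 2746 (log2 fold change 1.07, SE 0.23, adjusted p = 0.102 by limma). Nfe2l2, which encodes NRF2, was at 6429 to 6987 and 7712 to 8413, the malic enzyme gene Me1 at 1948 to 2221 and 2567 to 2937, and the glutathione conjugate exporter gene Abcc1 at 1101 to 1403 and 1557 to 1843. The groups of all 4 genes were apart. Nfe2l1 was at 2914 to 3386 and 2915 to 3958, and Hmox1, the heme oxygenase gene added after its values were seen, at 66 to 155 and 116 to 273. Both overlapped. Enzymes that remove peroxide and superoxide went the other way, lower in 10 of 13 tested (median -0.17, and -0.11 without untreated line 2), with 3 at an unadjusted p under 0.05. Prdx4 was at 411 to 605 and then 322, 361 and 283, Prdx2 at 3979 to 4147 and 2956 to 3717, and the mitochondrial superoxide dismutase gene Sod2 at 2384 to 2678 and 1924 to 2267.

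Other stress programmes were split. The ATF4 list had 14 of 22 members higher, 8 with an unadjusted p under 0.05, at a median of 0.08 (0.032 to 0.16 with 1 library left out, the lowest without treated line 2 and the highest without untreated line 4). Aldh1l2, a mitochondrial folate enzyme gene, was at 99, 94, 70 and 151 and then 240, 213 and 382 (log2 fold change 1.43), whereas Cebpg was lower at 1885 to 2185 and 1705 to 1764. Of the ER chaperones and unfolded protein response genes, 13 of 16 were lower (median -0.12). Pdia4 (3777 to 4388 and 3266 to 3351), Manf (1804 to 2144 and 1516 to 1697) and Sdf2l1 (1239 to 1616 and 1077 to 1199) were lower, and Herpud1 was higher (1602 to 1803 and 1865 to 2167). Heat shock genes were lower in 11 of 15 (median -0.07, and -0.10 without untreated line 1). The mitochondrial cochaperonin gene Hspe1 was at 1861 to 2269 and 1177 to 1570, Hspa8 at 16192 to 17720 and 14155 to 15543, Hsp90aa1 at 6110 to 7255 and 4965 to 6304, and Hsph1 at 1759 to 2534 and 1575 to 1859. The stress-inducible genes Hspa1a (69 to 204 and 129 to 298) and Hspa1b (189 to 426 and 311 to 724), near-identical copies added after their values were seen, had higher means with an overlap, and log2 fold changes of 0.70 (SE 0.39) and 0.74 (SE 0.33). Metallothioneins and metal response genes had 4 of 7 higher, and the transferrin receptor gene Tfrc was at 13047 to 13865 and 9392 to 10778. Hypoxia and glycolysis genes were lower in 13 of 22 (median -0.08, from -0.21 without treated line 4 to -0.0011 without treated line 2), among them Bnip3 (469 to 988 and 428 to 517) and Pgk1 (7664 to 9828 and 6652 to 7638). With the line as a block 5 of the 22 were lower and 0 higher at an adjusted p under 0.10, against 0 lower without it. Autophagy and lysosome genes were higher in 11 of 18. Atg9b stood out with 307 to 573 and then 997, 1509 and 1593, while Sqstm1 (3514 to 4261 and 4332 to 6225) and Ulk1 (1061 to 1224 and 1310 to 1359) differed less.

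Epithelial chemokines and NF-kB feedback genes were higher in 17 of 22 (median 0.32), but without treated line 4 the median was 0.0076. By library, as a difference from the untreated mean, it was -0.08, 0.04 and 0.67 in treated lines 1, 2 and 4 and -0.26 to 0.31 in the untreated libraries. Cx3cl1 was at 684 to 795 and 897 to 927, and the cytokine gene Lif at 122 to 194 and 185 to 312. The chemokine genes Ccl28 (844 to 1156 and 577 to 811) and Ccl9 (489 to 708 and 229 to 515) were lower. With the line as a block 4 members of this list were higher and 0 lower at an adjusted p under 0.10, against 0 higher without it. Interferon-stimulated genes were higher in 11 of 16, with line 4 the highest. Oasl1 was at 156 to 262 without treatment and after CAP at 225, 359 and 1415 in lines 1, 2 and 4, and Ddx60 at 45 to 64 and then 63, 108 and 277. Irf7 was at 174 to 207 and then 225, 264 and 420, and the receptor gene Ifnlr1 at 284 to 376 and then 407, 381 and 666. Without line 4 the median of the interferon list was -0.05, against 0.11 with it and 0.28 without treated line 1. Cholesterol synthesis genes were lower in 15 of 19 (median -0.12, from -0.20 without treated line 4 to -0.072 without treated line 2). Stard4 was at 6316 to 6995 and 4817 to 5535, and Idi1 at 1350 to 1581 and 1144 to 1318.

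**Figure D2:**
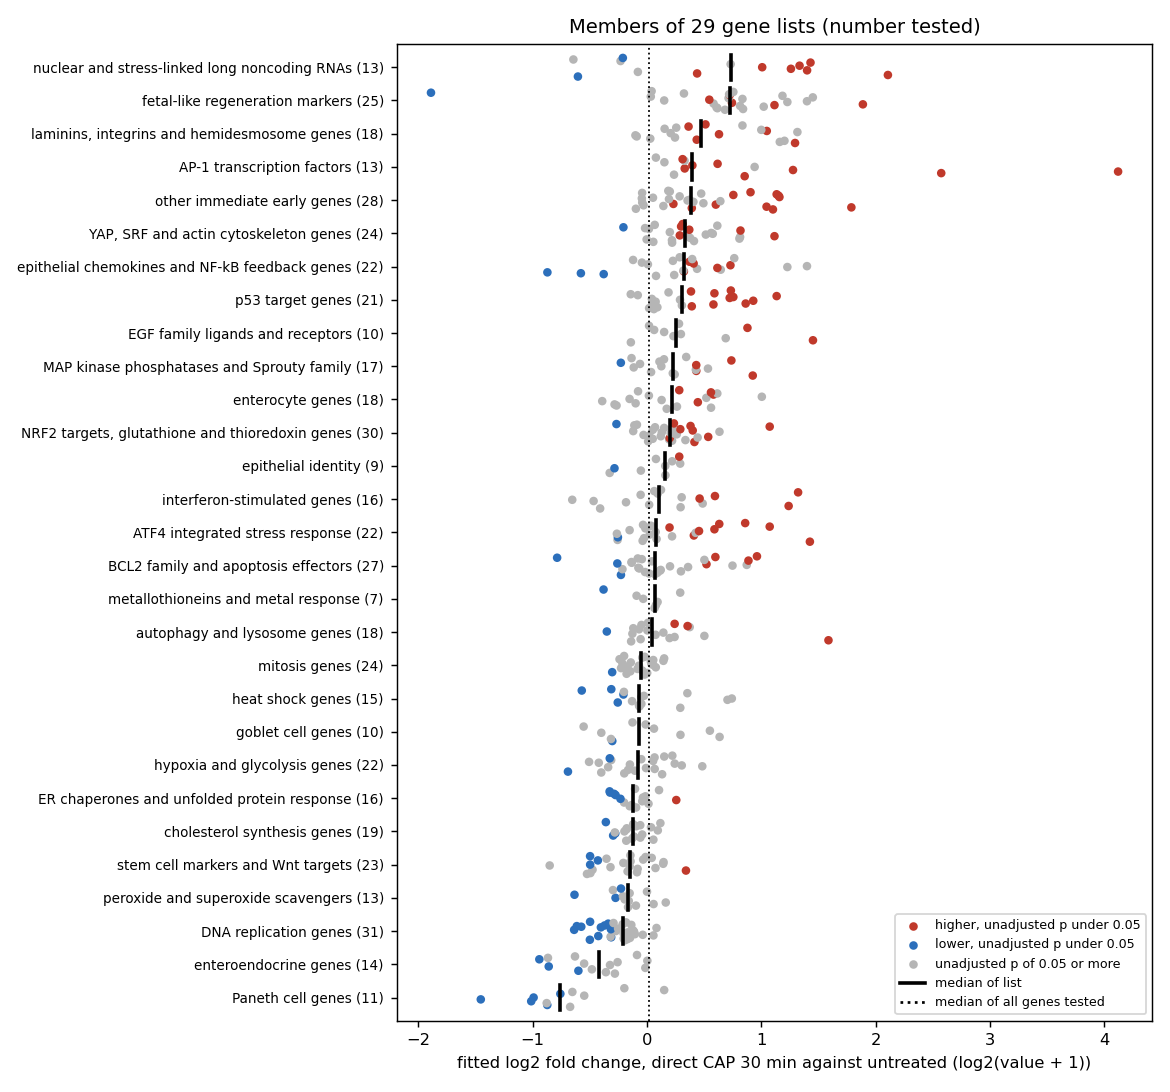
Fitted log2 fold change of direct CAP for 30 min against untreated for each tested member of 29 gene lists, with the number tested in parentheses. Points are genes, coloured where the unadjusted p was under 0.05; bars are list medians and the dotted line the median of all genes tested (0.02). AP-1 genes lie above that line, and the medians run from -0.76 for Paneth cell genes to 0.73 for nuclear and stress-linked long noncoding RNAs.

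Lists of intestinal cell types differed in sign. In bulk libraries, fewer cells of a type and less RNA per cell cannot be told apart. Paneth cell genes, which encode antimicrobial products of the crypt base, were lower in 10 of 11 members tested, 5 with an unadjusted p under 0.05, at a median log2 fold change of -0.76. The defensin genes belong to a family of near-identical copies, so reads may be split among them and single members are uncertain. Defa24 was at 5842, 5262, 4803 and 5703 and after CAP at 2421, 4035 and 1949 in lines 1, 2 and 4, a log2 fold change of -1.01 (SE 0.22, adjusted p = 0.102 by limma). Defa17 was at 728 to 1034 and 365 to 731, and Defa26 at 59 to 154 and 14 to 86. Defa29, which is not on the list and is named for its large fall, was at 968 to 1460 and 374 to 831. Itln1, the intelectin gene, was at 8393 to 11600 and then 4877, 8562 and 4958. Lyz1 was at 15122 to 20706 and then 10236, 18199 and 6734. In each of these genes, treated line 2 was the highest of the treated libraries. The summed value of the list was 31936 to 45139 in untreated libraries and 20168, 36596 and 15862 in treated lines 1, 2 and 4 (exact permutation test, two-sided, p = 0.114, where 0.0571 is the smallest possible with 3 against 4). The list median was -1.06 without treated line 2 and -0.41 without treated line 4, and with the line as a block 4 members were lower at an adjusted p under 0.10, against 0 without it. The mucosal pentraxin genes Mptx1 (1886 to 3548 and 537 to 1521) and Mptx2 (511 to 1408 and 163 to 494), and AY761184, a defensin-related gene (104 to 154 and 15 to 57), were also highest in treated line 2 among the treated libraries.

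Stem cell markers and Wnt targets were lower in 18 of 23 (median -0.15), with 3 at an unadjusted p under 0.05, a share near the 11% of all genes tested. Olfm4 was at 22768, 20867, 25431 and 22333 and after CAP at 18005, 18466 and 12679 (log2 fold change -0.50, SE 0.15, adjusted p = 0.115 by limma), and Smoc2 at 5705 to 6606 and 3495 to 5447. Lgr5 itself overlapped between groups, at 2822, 1305, 1816 and 1281 and then 1591, 2171 and 747. Ung was at 580 to 719 and 332 to 561, and Ccnd1, the cyclin D1 gene, was higher at 3778 to 4680 and 4886 to 5888. DNA replication genes were lower in 29 of 31, with 11 at an unadjusted p under 0.05 and 9 with no overlap, at a median of -0.21. Pclaf was at 776 to 1054 and then 627, 661 and 461, Rfc4 at 530 to 578 and then 411, 445 and 256, Rpa2 at 760 to 908 and 561 to 721, and Ccne2 at 351 to 466 and 238 to 335. E2f2, a cell cycle transcription factor gene that is not on the replication list, was at 1628, 1492, 1556 and 1642 and after CAP at 1131, 1126 and 1157, a log2 fold change of -0.47 (SE 0.07, adjusted p = 0.1005 by limma). Mitosis genes were lower in 16 of 24 with a median of -0.06, and the survivin gene Birc5 was the member at an unadjusted p under 0.05, with 805 to 980 and 586 to 789. Treated line 4 was the lowest library for the replication, mitosis and stem cell lists, and without it their medians were -0.12, 0.06 and -0.02. Without treated line 2 they were -0.33, -0.12 and -0.34.

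Enteroendocrine genes were lower in 13 of 14 (median -0.42, and -0.27 without untreated line 4). Gip, an incretin hormone gene, was at 285, 383, 354 and 594 and then 211, 187 and 249, the secretin gene Sct at 37 to 75 and 21 to 33, and Chgb at 1075 to 1828 and 725 to 1258. Goblet cell genes had 4 of 10 higher, with Agr2 at 2515 to 3331 and 1996 to 2749 and the mucin gene Muc2 at 4217 to 11810 and 6263 to 13149. Enterocyte genes were higher in 12 of 18 (median 0.22), and the median was 0.065 without treated line 2 and 0.14 without treated line 4. Sis was at 27677 to 33758 and then 48059, 53252 and 41078, the glucose transporter gene Slc5a1 at 8061 to 10732 and 13734 to 15332, and Apob at 53303 to 65472 and 66038 to 99431. Among the 6 with a lower mean, Cyp3a11, a drug-metabolizing cytochrome gene, was at 6694 to 13178 and 5526 to 9083, and the apolipoprotein gene Apoa1 at 12080 to 16137 and 10669 to 13493. Both overlapped and were added after their values were seen. The fructose transporter gene Slc2a5, which is not on the list, was at 1567, 1600, 1312 and 1513 and after CAP at 2914, 2841 and 2294, a log2 fold change of 0.84 (SE 0.11, adjusted p = 0.1005 by limma). Epithelial identity genes did not share 1 direction, with Vil1 at 11556 to 13932 and 14102 to 17643 and Epcam at 15909 to 17187 and 12521 to 14229. Tuft cell genes had 4 of 8 members past the filter, 3 of them higher. Of the markers of other tissues, 2 of 9 fibroblast, 4 of 11 immune, 3 of 7 endothelial and 4 of 8 enteric neuron and glia markers passed the filter, and their summed values overlapped between groups.

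**Figure D3:**
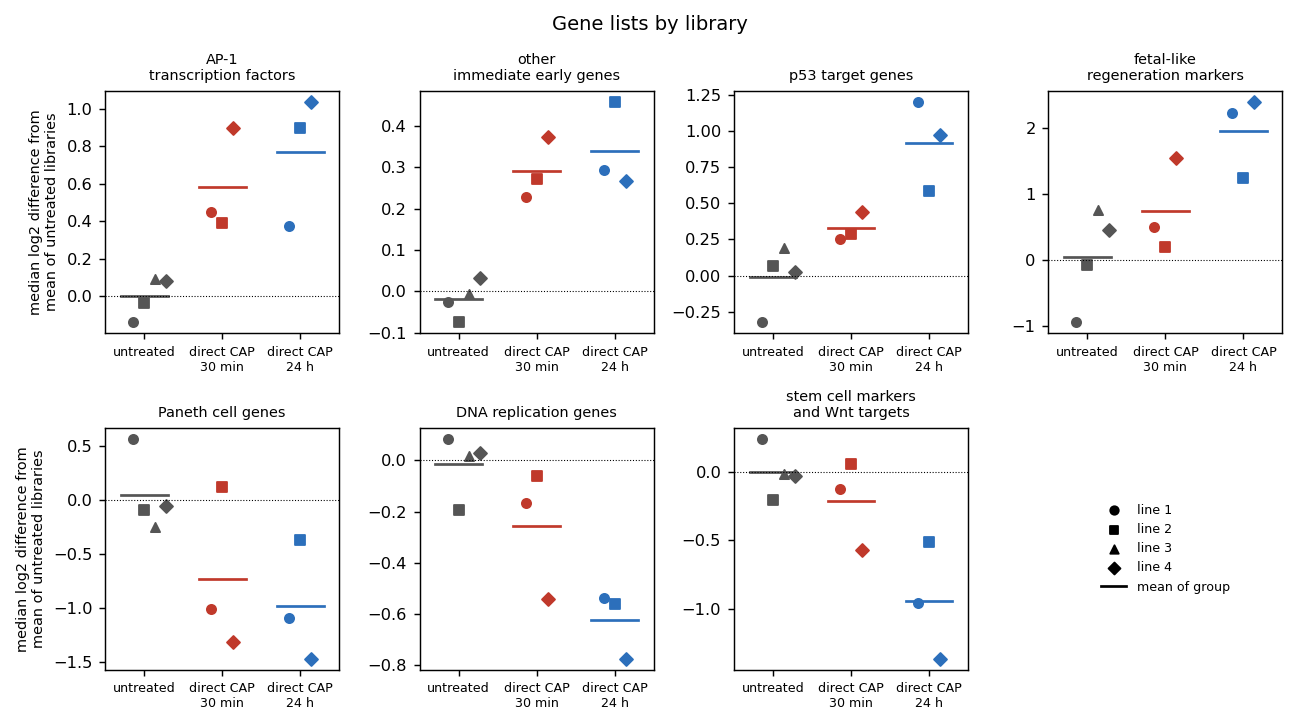
Median over the tested members of 7 gene lists of the log2(value + 1) difference from the mean of the untreated libraries, in each untreated library and each library after direct CAP for 30 min or 24 h. Symbols mark lines and bars the group means. At 30 min all treated libraries lie above the untreated libraries for AP-1 genes, other immediate early genes and p53 targets, whereas for Paneth cell genes line 2 (0.12) stays apart from lines 1 (-1.01) and 4 (-1.31).

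Among the nuclear and stress-linked long noncoding RNAs, 8 of 13 tested were higher and 5 lower, at a median of 0.73 (0.46 with quantile normalization). Blocking by line put 8 higher and 1 lower at an adjusted p under 0.10, against none without it. Malat1 and Neat1, which stay in the nucleus, were at 13534, 22818, 26502 and 16544 and then 40518, 40421 and 69247, and at 2686, 5863, 5285 and 3594 and then 10403, 9248 and 14663. Their log2 fold changes were 1.34 (SE 0.27) and 1.43 (SE 0.28), both with an adjusted p of 0.1005 by limma. Gm20417 was at 1315 to 2570 and 4162 to 7214, Gm37376 at 607 to 1263 and 1650 to 3642, and Kcnq1ot1, the antisense transcript of an imprinted domain, at 1343 to 2810 and 3032 to 4502. Gm37376 (chr19:5801941-5802393) lies within the span of Malat1 (chr19:5795690-5802672), and the values of Gm20417 closely followed those of Malat1. These members may therefore not be separate signals, and the counts and median of the list may hold the Malat1 locus more than once. Fer1l4, which the study names as a long noncoding RNA but the annotation used here lists as protein-coding, was at 56, 58, 45 and 159 and then 183, 135 and 1123, an overlap. Epb41l4aos was lower, at 383 to 441 and 225 to 291. Whole classes of genes in the annotation differed too. Genes of the annotation class TEC, loci listed as still to be verified by experiment, had a median log2 fold change of 0.82, with 801 of 916 higher, and sense intronic genes one of 0.95, with 119 of 124 higher, against -0.02 over 13036 protein-coding genes. These classes were looked at after the values were seen. TEC genes took 0.371 to 0.427% of each untreated library and 0.443 to 0.482% of each treated library. Ribosomal protein genes, which are short and spliced, took 3.20 to 3.72% and 2.23 to 2.92%, with 82 of 82 lower and 72 of 82 without overlap. Each of these shares had an exact permutation p of 0.0571 (two-sided, the smallest possible) and an adjusted p of 0.297 over 26 shares and sums. Of the 2608 shortest protein-coding genes, 20.7% had all treated libraries below all untreated libraries, and of the 2607 longest 6.1%. The part of these differences in RNA classes in the values of the noncoding RNAs, the ribosomal protein genes and the short genes among the lists was not tested.

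**Figure D4:**
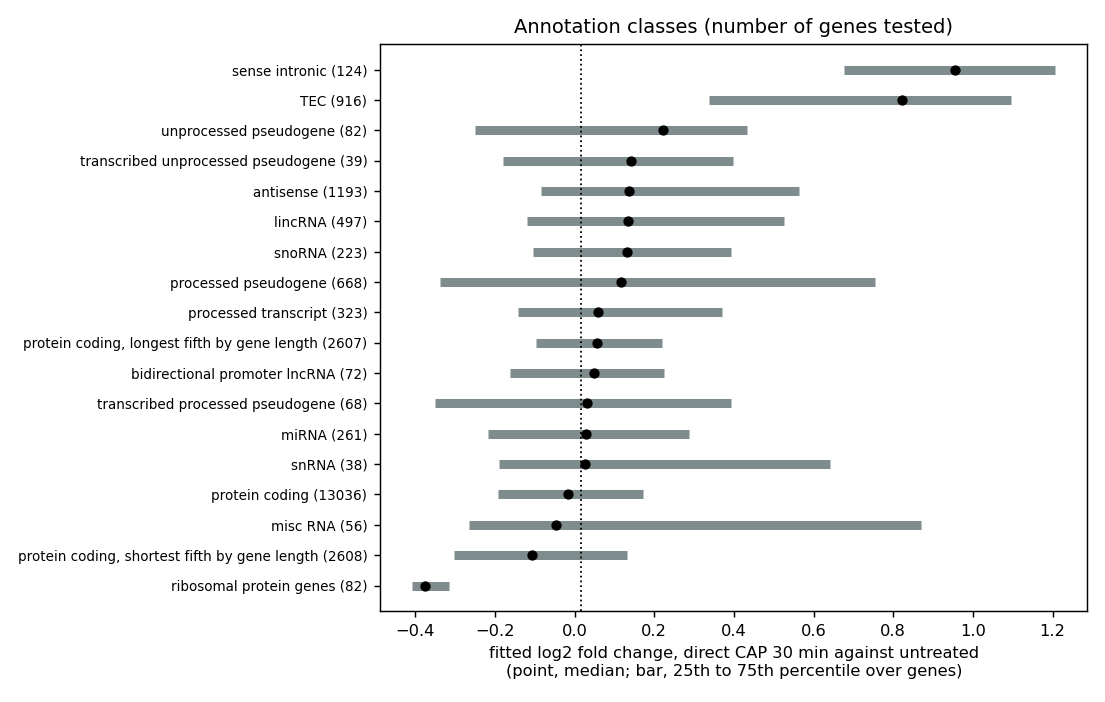
Fitted log2 fold change of direct CAP for 30 min against untreated by annotation class, with the number of genes tested in parentheses. Points are medians and bars run from the 25th to the 75th percentile over genes; the dotted line is the median of all genes tested. Sense intronic (0.95) and TEC genes (0.82) lie far above it and ribosomal protein genes (-0.38) below it.

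Of the genes of largest change among those with a mean value of at least 50, an unadjusted p under 0.01 and no overlap, several are little studied. 9130204L05Rik was at 1, 4, 9 and 19 and after CAP at 32, 175 and 383, a log2 fold change of 4.29 (SE 0.95, adjusted p = 0.102 by limma). Krt4, a keratin gene of stratified epithelia, was at 81, 248, 322 and 307 and then 901, 522 and 918. Foxc1, a forkhead factor gene, was at 21 to 39 and 87 to 109. Of the unnamed loci, Gm44639 (15 to 55 and 99 to 143), Gm38065 (19 to 56 and 77 to 119), Gm37352 (22 to 73 and 108 to 241), Gm15371 (21 to 52 and 83 to 100) and AC122828.4 (19 to 26 and 55 to 72) were higher. Lower values were seen for the sialidase gene Neu3 (307 to 593 and 160 to 233), the alcohol dehydrogenase gene Adh4 (3186 to 4249 and 1381 to 2522), Gm45205 (1747 to 1952 and 815 to 1272) and the ciliary gene Tmem237 (367 to 427 and 199 to 246). Further genes with a small p in the lower direction were Rdh11, a retinol dehydrogenase gene (2560 to 2791 and 1746 to 1994), Creg1 (1153 to 1454 and 837 to 918), Cd302 (566 to 703 and 335 to 431), Gm33051 (1171 to 1551 and 770 to 943), Timm21 (478 to 565 and 317 to 381) and Fam136a (1783 to 2074 and 1123 to 1407). Arntl, the clock gene for BMAL1, was at 470 to 551 and 362 to 364.

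In the direct CAP 24 h group, plasma was applied in the same mode to the same lines, and the treated medium was left on for 24 h. The difference between the 2 exposures was tested without the untreated libraries. Limma found no gene past the threshold of 17668 tested, with 3774 at an unadjusted p under 0.05. With the line as a block, where the labels of these 6 libraries are not in doubt, 97 genes were higher (0.549%) and 103 lower (0.583%) after 24 h. Fosb was at 161, 35 and 43 after 24 h, 2.37 lower on the log2 scale than after 30 min (adjusted p = 0.00185 with the block and 0.205 without it by limma). Egr1 was at 817, 674 and 490, a log2 difference of -0.81 (adjusted p = 0.0133 with the block and 0.205 without it), and Fos at 1211, 733 and 1167, a log2 difference of -0.50 (adjusted p = 0.0352 and 0.269). Zfp36, Cyr61 and Fgfbp1 differed by -0.08, -0.27 and -0.08, with adjusted p values of 0.691, 0.283 and 0.823 with the block. Other genes stood further from the untreated level after 24 h. Olfm4 was at 4979, 5417 and 3058 (log2 difference -1.89, adjusted p = 0.000964 with the block by limma), Ly6a at 1275, 900 and 2554 (1.98, adjusted p = 0.00208) and Areg at 3308, 3671 and 6369 (1.83, adjusted p = 0.0024). Without the block their adjusted p values were 0.151, 0.205 and 0.205.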

How the data were processed

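Total RNA of each library was sequenced as paired-end reads of 100 bases (Ovation SoLo kit, per the labels). The authors trimmed reads with Trimmomatic 0.36, aligned them to GRCm38 with STAR 2.5.3a, counted them per Ensembl gene with HTSeq 0.9.1 and scaled the counts to about 20 M per library, rounded up. The deposited values are this scaled score per gene, so count models were not used. At this scaling a value of 10 stands for roughly 10 reads, and counting error is large there.

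The log2 of each value plus 1 was fitted with limma 3.58.1 in R 4.3.3 (trended moderated test, Benjamini-Hochberg adjusted p), keeping genes that reached 10 in 3 or more fitted libraries. Fold changes are on this scale and understate the change of low genes. Genes were matched to GENCODE vM21 (52489 of 52636). Shares were compared with exact permutation tests. The limma test was checked on simulated data. There the spread of each gene was capped at the median spread over genes, and lines did not differ. The check therefore does not cover the noisier genes. None of 12 pairs of replicates was a copy of another. Members and lists were chosen with earlier results of these data known. Genes named are those past the threshold, those the study names for the early response, the 10 largest rises and falls with no overlap, the 10 smallest p values in each direction and at most 4 members per list. Jun, Lgr5, Lyz1, Muc2 and the genes marked so in the text were added after their values were seen. Lines with the same number come from the same mouse. After group means were removed, the untreated and 30 min libraries correlated at 0.18, 0.12 and 0.59 for labelled lines 1, 2 and 4, and the 24 h and 30 min libraries at 0.31, 0.54 and 0.56, and a replicate block by line was fitted beside the main design. Further alternatives were library weights, leaving out each library, all 7 groups fitted together, quantile normalization, no filter and a pseudocount of 10. Leaving out both untreated libraries of doubtful line, or exchanging their line labels, was chosen after seeing the data. Stainings, quantitative PCR and results for some named genes are not reported here.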

Additional observations from a re-analysis of the deposited data

Results flagged for a closer look

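The 149 genes named here and 26 shares and sums were searched for 1 untreated library that stood apart from the other 3 beyond Dixon's limit. In 9 genes or sums it did. Chance exceeds this limit in about 1 in 20 groups of 4, so about as many would be found by chance. The untreated library of line 2 was low for Ccl28 (844), Hsp90aa1 (6110) and Unc5b (394) and high for Fosb (56). Line 3 was high for Gm38065 (56) and Lif (194), line 4 for Fer1l4 (159) and Nupr1 (539), and line 1 for the summed immune markers (1793). Kit had the highest single value among these immune markers (1233 over all 7 libraries).

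The effect of direct CAP differed between 24 h and 30 min for the following genes, by limma's test of the difference with the line as a block at the threshold of the study. Without the block, no gene passed it. On the log2 scale, 24 h was above 30 min for 9130204L05Rik (2.31), Jdp2 (2.64), Ptgs2 (2.16), Ly6a (1.98), Areg (1.83), Aldh1l2 (1.54), Chgb (1.54), Nupr1 (1.34), Slc7a11 (1.22) and Krt4 (1.20). It was below 30 min for Fosb (-2.37), Lgr5 (-2.23), Olfm4 (-1.89), Mptx1 (-1.47), Smoc2 (-1.46), Ccl9 (-1.36), Ccl28 (-1.34) and Mptx2 (-1.33). All 3 lines had the same direction in each of these genes, which largely follows from choosing them by a difference within lines.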

How the results depend on the processing

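Egr1 was also the only gene past the threshold with quantile normalization, a pseudocount of 10 or no filter. With all 7 groups in one fit it was Fos (adjusted p 9.59e-05) and not Egr1 (0.0155). There was no such gene with the replicate block (0), with both untreated libraries of doubtful line left out (0) or without any single one of the 7 libraries (0 to 0), where the adjusted p of Egr1 was 0.0127 to 0.0875. There were 134 with all 7 groups and the replicate block and 3 with library weights (Egr1, Fos and Cyr61). Genes at an adjusted p under 0.05 numbered 1 as reported, 3 with the replicate block, 69 with all 7 groups in one fit, 1608 with both of these, 2611 with library weights, 0 with both doubtful libraries left out and 0 to 3 with 1 library left out. At an adjusted p under 0.10 the 5 genes became 358 with quantile normalization, 957 with a pseudocount of 10, 1111 with all 7 groups in one fit, 1232 with the replicate block, 3341 with both, 4741 with library weights and 1 with both doubtful libraries left out. Leaving out 1 library gave 1 to 1301, the highest without untreated line 3, and at most 4 otherwise. With the line labels of those untreated libraries exchanged the block gave 497, 3006 and 4865 genes at the 3 limits. Quantile normalization changed the split at an unadjusted p under 0.05 from 2459 higher and 1956 lower to 1967 and 2304. Between 24 h and 30 min, the block gave 200 genes past the threshold and each other alternative 0. Of 34 list medians, 26 kept their sign under each alternative run for them. With 1 library left out, Lgr5 ranged from -0.65 to 0.12, Nfe2l1 from -0.076 to 0.14, Nupr1 from -0.016 to 0.77 and Slc2a1 from -0.097 to 0.34, and each turned sign without treated line 4 only. The cause of these changes was not tested. With 3 libraries against 4, an exact permutation test of a single value cannot go below 0.0571.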

Other observations

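The following genes of the circadian clock were chosen after their values were seen, for groups that did not overlap, so they say nothing of clock genes as a group. Nr1d1, which encodes the repressor REV-ERB alpha, was at 753, 730, 658 and 635 in untreated lines 1 to 4 and at 1121, 1019 and 1216 in treated lines 1, 2 and 4 (log2 fold change 0.69, SE 0.10, adjusted p = 0.1005 by limma). Dbp was at 314 to 401 and 489 to 722, Per1 at 382 to 453 and 543 to 752, Per3 at 412 to 466 and 557 to 590, and Tef at 1361 to 1512 and 1708 to 1908. Arntl and Cry1 were lower, at 470 to 551 and 362 to 364 and at 654 to 756 and 498 to 572. The hour of the day at which libraries were collected is not given in the sources used here.

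The next genes, which have a role in sugar uptake or use, were chosen in the same way and stand for no list. The glucose transporter gene Slc2a2 was at 651 to 1065 and 1651 to 2298, Mlxipl, which encodes the sugar-responsive factor ChREBP, at 1663 to 2062 and 2769 to 3006, and its target Txnip at 4141 to 6058 and 7622 to 8368. Tkfc, a triose kinase gene, was at 7676 to 12002 and 13532 to 18782. Without the block each of these had an adjusted p of 0.1005 to 0.108 by limma, and none passed a limit used here. With the line as a block the adjusted p by limma was 0.0633 for Slc2a2 and Mlxipl, 0.0666 for Txnip and 0.104 for Tkfc. The glucose transporter gene Slc2a1 was at 1729 to 2226 and 1716 to 3139, an overlap (log2 fold change 0.15, SE 0.19).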
